A study of Homo sapiens with 93 samples.

Results

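The BCL2 family decides whether a cell survives or dies by apoptosis at the mitochondrial membrane. The genes described here were chosen by function and named by Ensembl identifier, with earlier results of these data known, by a rule that uses no measured value, and all 10 of 10 were found among the 14000 features of the count table. They are 4 genes for survival proteins (BCL2, BCL2L1, which encodes BCL-XL, MCL1 and BCL2A1), 2 for the pore-forming effectors (BAX and BAK1), and 4 for BH3-only proteins, which start the process (BCL2L11, which encodes BIM, BBC3, which encodes PUMA, PMAIP1, which encodes NOXA, and BID). As background, BH3-only proteins bind the groove of the survival proteins, and some of them also activate BAX and BAK1 directly, which then open the outer mitochondrial membrane and release cytochrome c. In B cells infected with Epstein-Barr virus, the viral proteins EBNA3A and EBNA3C are known to repress BCL2L11, and BCL2A1 is a known target of NF-kB. H3K36me3, trimethylation of lysine 36 on histone H3, accumulates along gene bodies behind elongating RNA polymerase II, and its amount is no measure of RNA.

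H3K36me3 was profiled by CUT&Tag, in which an antibody on chromatin guides a DNA-cutting transposase, in 93 human lymphoblastoid cell lines, B cells immortalised with Epstein-Barr virus. The libraries form 1 group with 1 library per line, with no control group and no repeat of a line. Differences between lines therefore hold line, culture and technical differences together. Cultures had been grown in 4 batches of about 20 to 35 lines, and the batch of each line is not given in the labels. Library totals ran from 2842955 to 24325746 counts with a median of 14883653, and the correlation of log2 levels between libraries had a median of 0.967. The files pair no identifier with a gene name, and 0 of the 14000 matched the reference table by Ensembl identifier, so B cell markers and the other apoptosis genes were not analysed here.

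In RefSeq coordinates on build GRCh38.p14, the survival genes lie at chr18:63123346-63320090 (BCL2), chr20:31664452-31723963 (BCL2L1), chr1:150574558-150579610 (MCL1) and chr15:79960892-79971196 (BCL2A1). BAX is at chr19:48954875-48961798 and BAK1 at chr6:33572552-33580276. The BH3-only genes are at chr2:111120914-111168445 (BCL2L11), chr19:47220824-47232860 (BBC3), chr18:59899996-59904305 (PMAIP1) and chr22:17734138-17774665 (BID). Since CUT&Tag does not mark strand, reads of overlapping genes cannot be told apart: BCL2L1 overlaps the antisense gene BCL2L1-AS1, and BCL2, BBC3 and BID overlap small or uncharacterised genes.

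Among the 4 survival genes, BCL2 carried the most H3K36me3 reads. BCL2 (ENSG00000171791.13) had 139 CPM (counts scaled to the library total) in the lowest line, 227 in the median line and 339 in the highest. BCL2L1 (ENSG00000171552.13) had 85.5, 148 and 241 CPM in the lowest, median and highest line. MCL1 (ENSG00000143384.13), whose protein is short-lived, had 17.8, 32.2 and 62.4 CPM. BCL2A1 (ENSG00000140379.8) was far lower and more spread, with 4.65, 9.98 and 24.8 CPM. The highest line was 5.33-fold above the lowest at BCL2A1, against 2.44-fold at BCL2 and a median of 2.85-fold over the 13915 features tested. BCL2A1 lay at the 14.3 percentile of mean log2 CPM, so that median is over mostly more marked features. The lowest raw count of a survival gene in any library was 25, at BCL2A1.

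Of the 2 effectors, BAK1 had a spread close to that of the median feature and BAX a wider one. BAX (ENSG00000087088.20) had 15.3, 25.5 and 46.9 CPM in the lowest, median and highest line. BAK1 (ENSG00000030110.13), the other pore-forming protein, had 35.9, 60.9 and 99.9 CPM. The coefficient of variation (SD over mean, n = 93) was 0.247 at BAX (67.4 percentile) and 0.187 at BAK1 (41.1 percentile), beside a median of 0.205 over all features tested.

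The BH3-only genes held the widest spread of the 10 genes and also some of the narrowest. BCL2L11 (ENSG00000153094.24) had 29.2, 76.7 and 213 CPM in the lowest, median and highest line, a 7.30-fold range and a coefficient of variation of 0.452, higher than at 98.1% of the features tested. PMAIP1 (ENSG00000141682.12) had 1.75, 4.89 and 11.8 CPM, on raw counts as low as 13, and a 6.73-fold range. Its mean log2 CPM lay at the 6.33 percentile of the features tested. BBC3 (ENSG00000105327.18), a target of p53 like PMAIP1, had 18, 37.1 and 52.3 CPM. BID (ENSG00000015475.18), which caspase 8 cleaves to join death receptors to mitochondria, had 17.3, 53.8 and 75.6 CPM. At BID 1 line lay apart, since the second lowest line had 32.1 CPM.

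The high end at BCL2L11 was a group of lines and not 1 line. The 5 highest lines had 213, 211, 196, 166 and 158 CPM, and 6 lines were above 2 times the median, as many as or more than which were seen at 239 of the 13915 features (1.72%). BCL2A1 and PMAIP1 each had 4 such lines, and the other 7 genes had 0. Between the lines at the 10th and 90th percentile, BCL2L11 still spanned 3.19-fold (45.9 and 146 CPM), BCL2A1 2.80-fold and PMAIP1 2.49-fold, against 1.55-fold to 2.19-fold for the other genes.

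**Figure D1:**
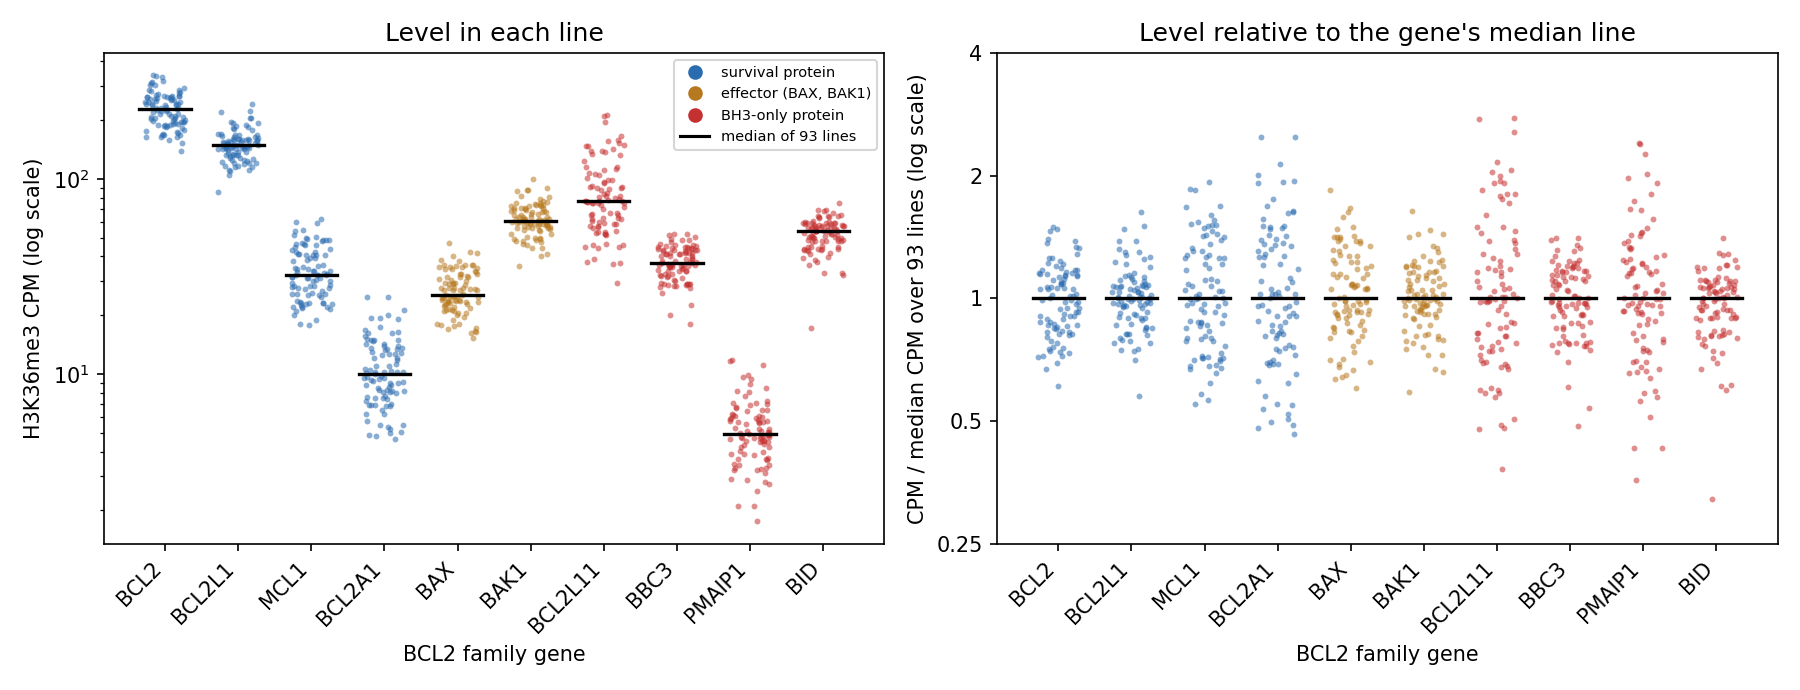
H3K36me3 level of the 10 genes in each of 93 lines: CPM on a log axis, and CPM over the gene's own median, 1 point per line. BCL2L11 spans 29.2 to 213 CPM, whereas BCL2 spans 139 to 339 CPM.

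Levels can be set between genes only per length. Over the RefSeq gene span, since the interval counted by the authors was not given in the sources used here, BAK1 had the highest median density with 7.88 CPM per kb, followed by MCL1 with 6.38 and BAX with 3.68. BBC3 had 3.09 CPM per kb, BCL2L1 2.49 and BCL2L11 1.61. BID, BCL2, PMAIP1 and BCL2A1 came last, with 1.33, 1.16, 1.13 and 0.968 CPM per kb. BCL2, the highest in CPM, was thus among the lowest per kb, because its gene spans 196745 bases against 5053 for MCL1. The step between MCL1 and BAX was the clearest, with MCL1 higher in 93 of 93 lines (mean log2 difference 0.78 ± 0.31, SD, n = 93). BAK1 was above MCL1 in 72 lines (0.30 ± 0.40), and BCL2L11 above BID in 68 (0.40 ± 0.62). BCL2 and PMAIP1 were not ordered, with BCL2 higher in 47 lines (-0.01 ± 0.45), and PMAIP1 was above BCL2A1 in 61 (0.23 ± 0.54). Levels of whole stretches of the table differed as well: the median log2 CPM was 5.74 over rows 1 to 1900, which hold MCL1, and 4.85 over rows 3201 to 7700, which hold BCL2, BCL2A1, BAX, BBC3 and PMAIP1. Over rows 9601 to 14000, which hold BAK1, the median was 5.77. Closer to the genes, the median log2 CPM of the 100 nearest rows was 4.36 at MCL1, 4.34 at BAX and 5.49 at BAK1. These stretches were chosen after the values were seen, and how far the order of genes across them follows the level of the stretch was not tested.

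Variation between lines was then compared with that of features of like count, by the ratio of a gene's own dispersion to the dispersion fitted as a trend over all features, with log2 library total and dynamic range taken into account. Dynamic range here is the median log2 CPM of the most marked quintile of features minus that of the least marked, which ran from 4.25 to 5.07 between libraries. BCL2L11, BCL2A1, MCL1, PMAIP1 and BAX varied more than the trend, 5 of the 10 genes, beside 18.6% of all features tested (edgeR goodness-of-fit test, Benjamini-Hochberg adjusted p under 0.05 over 13915 features). They include 2 survival genes, 1 effector and 2 BH3-only genes. BCL2L11 stood highest, with a log2 ratio of 2.66 (adjusted p = 5.73e-72, edgeR), above 99.3% of the features tested. BCL2A1 had a log2 ratio of 1.34 (adjusted p = 1.76e-10, edgeR) and MCL1 0.86 (4.58e-05). PMAIP1 had 0.76 (adjusted p = 0.00365, edgeR) and BAX 0.48 (0.0409). BCL2 fell just short with 0.44 (adjusted p = 0.0542), and BCL2L1, BBC3 and BID had 0.09, 0.06 and 0.14. BAK1 was the only 1 of the 10 genes under the trend, with -0.44, close to the median of -0.51 over all features.

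Counting error made up 0.818% of the residual variance of BCL2L11, 9.01% of that of BCL2A1 and 21.5% of that of PMAIP1. The call at BAX was lost under several other settings (adjusted p = 0.0765 with DESeq2's size factors and 0.665 after the shared level of neighbouring rows was taken off). With 5 principal components of the table taken off in place of depth and dynamic range, 2 of the 10 genes passed, beside 18.6% of all features. They were BCL2L11 with a log2 ratio of 3.42 and BCL2A1 with 0.95 (adjusted p = 0.000102, edgeR).

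**Figure D2:**
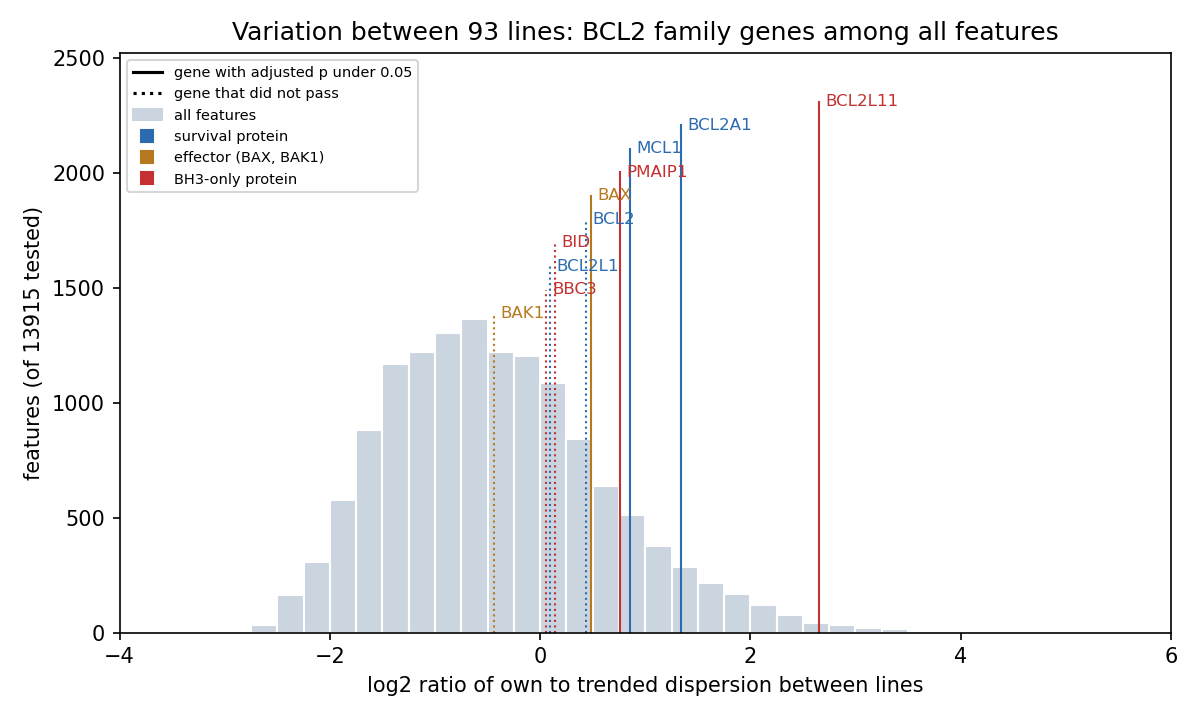
Log2 ratio of own to trended dispersion between 93 lines: histogram over the 13915 features tested, with lines at the 10 genes (solid, adjusted p under 0.05, dotted, not). BCL2L11 lies at 2.66, in the right tail, and BAK1 at -0.44, near the middle.

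Upstream promoter sequence is shown for 4 of the 5 genes that passed, because H3K36me3 over a gene body depends on transcription that begins there. MCL1 is left out because the promoter reference used here had no entry for it. Each window holds the 250 bases before the RefSeq start on build GRCh38.p14, read 5′ to 3′ on the gene's strand. It lies at chr2:111120664-111120913 on the plus strand for BCL2L11, at chr15:79971197-79971446 on the minus strand for BCL2A1, at chr18:59899746-59899995 on the plus strand for PMAIP1 and at chr19:48954625-48954874 on the plus strand for BAX. Capitals mark matches on either strand to the GC box GGGCGG, to the box CCAAT, to the word TATAAA or to the E-box CACGTG.
BCL2L11: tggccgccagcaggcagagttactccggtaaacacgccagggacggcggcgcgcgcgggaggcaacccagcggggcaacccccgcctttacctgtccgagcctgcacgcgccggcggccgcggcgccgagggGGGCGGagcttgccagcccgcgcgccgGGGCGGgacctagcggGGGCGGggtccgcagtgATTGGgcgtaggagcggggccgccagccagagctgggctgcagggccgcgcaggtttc
BCL2A1: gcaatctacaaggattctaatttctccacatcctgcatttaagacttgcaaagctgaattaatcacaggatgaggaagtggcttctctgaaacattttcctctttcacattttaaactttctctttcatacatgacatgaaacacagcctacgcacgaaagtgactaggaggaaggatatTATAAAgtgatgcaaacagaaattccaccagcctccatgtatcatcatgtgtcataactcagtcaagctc
PMAIP1: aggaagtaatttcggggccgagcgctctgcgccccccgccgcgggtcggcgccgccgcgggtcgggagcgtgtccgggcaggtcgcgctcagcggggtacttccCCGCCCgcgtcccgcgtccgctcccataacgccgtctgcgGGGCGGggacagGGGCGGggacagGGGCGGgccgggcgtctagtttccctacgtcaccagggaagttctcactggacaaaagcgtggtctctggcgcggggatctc
BAX: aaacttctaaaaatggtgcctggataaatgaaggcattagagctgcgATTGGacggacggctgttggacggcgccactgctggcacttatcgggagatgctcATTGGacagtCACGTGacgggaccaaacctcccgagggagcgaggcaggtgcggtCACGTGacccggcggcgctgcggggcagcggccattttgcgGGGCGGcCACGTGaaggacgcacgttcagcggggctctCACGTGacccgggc
BCL2L11 and PMAIP1 have CpG-rich windows, with 34 and 36 CG dinucleotides, and 6.84% and 4.85% of 35116 RefSeq windows have as many or more. BAX has 25 (21.6%). BCL2A1 has 2 (85.3% of windows have as many or more) and the only TATAAA of the 4, a word found in 10.7% of windows. GGGCGG occurs 3 times in BCL2L11, 4 times in PMAIP1 and 1 time in BAX, and in 42.6% of windows. CCAAT occurs 1 time in BCL2L11 and 2 times in BAX (32% of windows), and CACGTG 4 times in BAX (6.34%). Neither an NF-kB site nor a p53 half-site was matched in the 4 windows, against 5.21% and 5.57% of all windows. A match is a description of the letters and not a bound site.

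Depth and dynamic range were related to the level of most of the genes, as they were to that of most features tested. In a limma fit of log2 CPM on both terms, 6 of the 10 genes were related to the library total (5 higher and 1 lower in deeper libraries), beside 64.9% of all features (30.5% higher and 34.3% lower). The rise per doubling of the total was 0.23 ± 0.03 log2 CPM at BAK1 (SE, n = 93, limma adjusted p = 1.83e-10), and the slope at BCL2A1 was -0.25 ± 0.07 (0.00122). BCL2L11 had 0.05 ± 0.09 (limma adjusted p = 0.587). With dynamic range, 9 of the 10 genes rose, beside 44.2% of all features higher and 79.9% in either direction. Some of the genes belong to the quintiles that define this term. By mean log2 CPM, BCL2 (94.8 percentile) and BCL2L1 (87.9) lie in the most marked quintile, and BCL2A1 (14.3) and PMAIP1 (6.33) in the least marked. How far this enters their slopes was not tested. MCL1 had the steepest slope, 1.5 ± 0.23 log2 CPM per log2 unit (limma adjusted p = 1.36e-08), and BBC3 was the 1 gene that did not pass (0.20 ± 0.18, adjusted p = 0.3).

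After these 2 terms were taken off, most of the genes rose and fell together across lines. Of the 45 pairs, 42 had a correlation above 0, with a median r of 0.363, and 30 passed a limma regression in at least 1 of its 2 directions, all of them positive. The pairs that passed were 27 of the 28 among BCL2, BCL2L1, MCL1, BCL2A1, BAX, BAK1, BBC3 and PMAIP1 (median r 0.448), with BCL2A1 and BAK1 as the exception (r = 0.213). The other 3 were BID with BCL2A1, BID with BAX, and BCL2L11 with BAK1. BCL2L11 with BAK1 passed only with BAK1 as the predictor (r = 0.240, limma adjusted p = 0.0367, and 0.267 in the other direction). Its permutation p was 0.0211 for r and 0.0815 for rho (0.181), and r was 0.171 without 2 lines. It passed in 7 of 13 alternatives. Pairs of a survival gene with a death gene were as a rule positive too, with BCL2L1 and BID as the 1 exception under 0 (r = -0.0272, rho = 0.151, permutation p = 0.794 and 0.148, and r = 0.187 without 2 lines). Many other features moved with the same genes: with MCL1 as the predictor 7 of the 9 other genes passed, beside 57.4% of all features (30.5% higher), with BAX 8 of 9 (59.6%, 32.4% higher) and with BCL2L1 7 of 9 (32.6%, 13.8% higher). For BCL2, BCL2A1, BAK1, BBC3 and PMAIP1 it was 7 of 9 each, beside 55.7% (27.7% higher), 41.4% (20.9%), 56.5% (29.5%), 42.2% (21.1%) and 46.2% (24.4%) of all features. For BID it was 2 of 9, beside 29.6% of all features (15% higher), but without the 1 line lowest at BID it was 5 of 9, beside 42.3% of all features.

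The survival gene MCL1 and the effector BAX were the closest pair (Pearson's r = 0.655, Spearman's rho = 0.684, permutation p = 1e-05 for each, the smallest that 100000 permutations can give, n = 93). Without the 2 lines farthest out at MCL1, r was 0.628, and it was 0.682 among the 46 shallower libraries and 0.595 among the 47 deeper ones. In these Results, r within a depth class uses the residuals of the fit to all 93 libraries, unless a fit within the class is stated. BAX and BBC3 came next (r = 0.633, rho = 0.604, permutation p = 1e-05 for each, and r = 0.584 without 2 lines, 0.601 among shallower and 0.691 among deeper libraries). BAX and BBC3 lie on the same chromosome, 19, with 1.72 Mb between them. BCL2 and BCL2L1, the anti-apoptotic pair of the longest genes, had r = 0.617 and rho = 0.618 (permutation p = 1e-05 for each, r = 0.641 without 2 lines, 0.616 among shallower and 0.607 among deeper libraries). The limma adjusted p over all features was at most 3.84e-08 in either direction of these 3 pairs. BCL2A1 and BID had r = 0.556 and rho = 0.470 (permutation p = 1e-05 for each, r = 0.478 without 2 lines, 0.573 among shallower and 0.523 among deeper libraries, limma adjusted p = 1.23e-06 and 2.63e-06).

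The 2 effectors, which can stand in for each other in opening the membrane, had r = 0.582 and rho = 0.584 (permutation p = 1e-05 for each, r = 0.59 without 2 lines, 0.654 among shallower and 0.42 among deeper libraries, limma adjusted p = 2.14e-08 and 2.27e-08). BBC3 and PMAIP1, both targets of p53, had a weaker relation (r = 0.356, rho = 0.357, permutation p = 4e-04 and 0.00035, r = 0.348 without 2 lines, 0.346 among shallower and 0.362 among deeper libraries, limma adjusted p = 0.00242 and 0.00218). BCL2 and PMAIP1 share chromosome 18, with 3.22 Mb between them, and had r = 0.475 and rho = 0.470 (permutation p = 2e-05 and 1e-05, r = 0.430 without 2 lines, 0.56 among shallower and 0.312 among deeper libraries, limma adjusted p = 8.62e-06 and 3.61e-05). With the fit made within each depth class, BAX with BAK1 had r = 0.5945 among shallower libraries (smaller limma adjusted p = 0.000144) and 0.367 among deeper ones (0.0703). BCL2 with PMAIP1 had 0.523 (0.00228) and 0.211 (0.303) in such fits. BBC3 with PMAIP1 passed in neither class, with 0.302 (0.121) and 0.2725 (0.248). The difference between these pairs was not tested.

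The first principal component of the residuals held 16.8% of the residual variance of all features, and 61.4% of that of BAX, 53.5% of that of BAK1, 53.3% of that of BCL2 and 51.6% of that of MCL1, against a median of 12.3% over features. In another fit, 5 principal components of the log2 levels themselves were taken off in place of depth and dynamic range. These are not the components of the residuals. Then 2 of the 45 pairs passed, with a median r of 0.0047, beside 0% to 5.88% of all features over the 10 predictors. The pairs were BCL2A1 with BID (r = 0.390, limma adjusted p = 0.0151) and BCL2L11 with BBC3 (r = -0.387, 0.0227). With 10 components of the log2 levels 1 pair passed, BCL2 with BCL2L1 (r = 0.471, limma adjusted p = 0.00468), beside 0% to 1.2% of all features. What the components stand for was not tested.

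**Figure D3:**
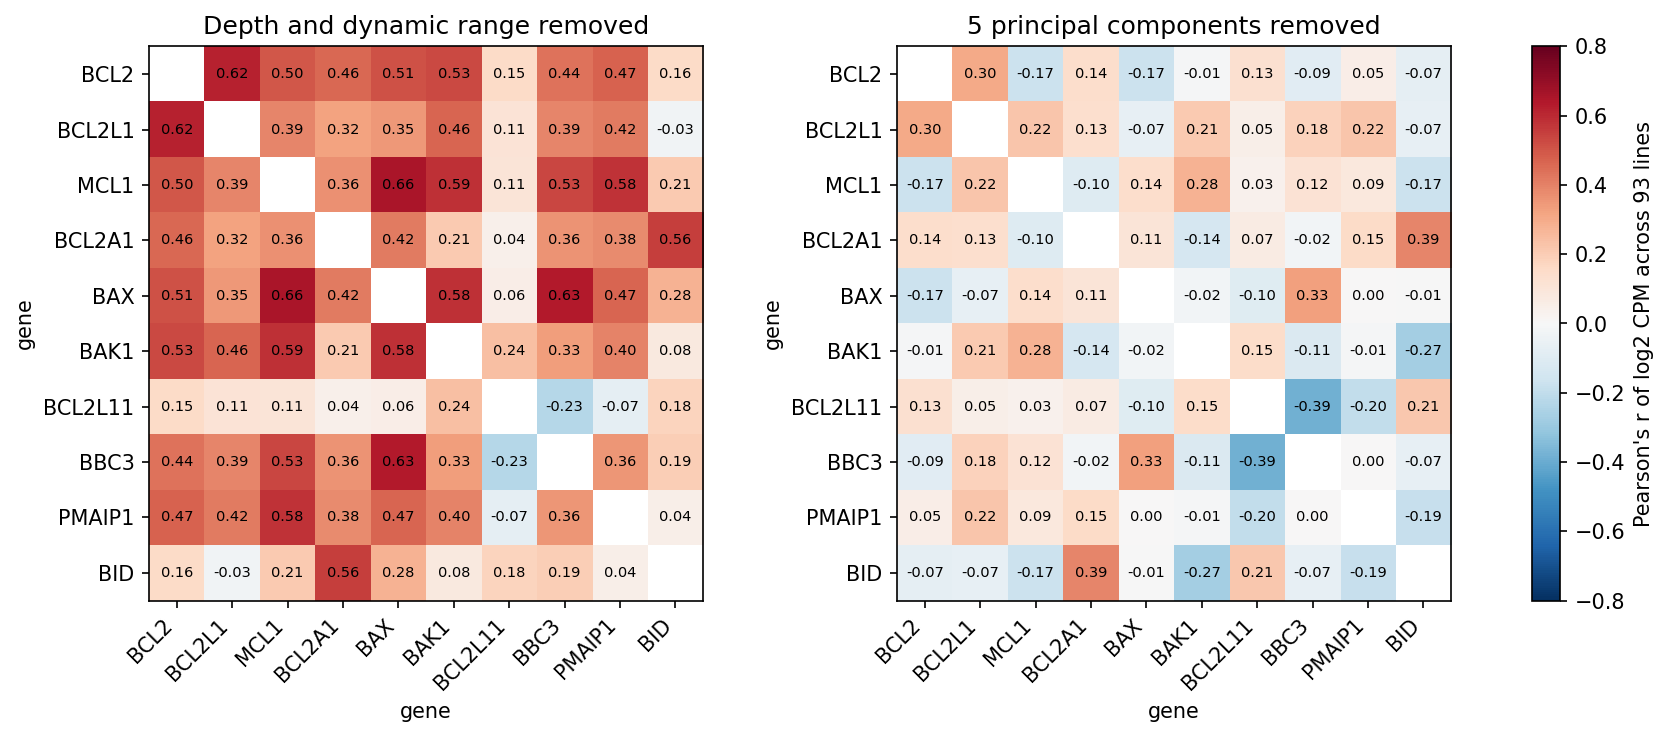
Pearson's r between the 10 genes across 93 lines, after depth and dynamic range (left) or 5 principal components (right) were taken off. The left map is above 0 in 42 of 45 pairs, with a median r of 0.363 and paler rows at BCL2L11 and BID, and the right map has a median r of 0.0047.

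**Figure D4:**
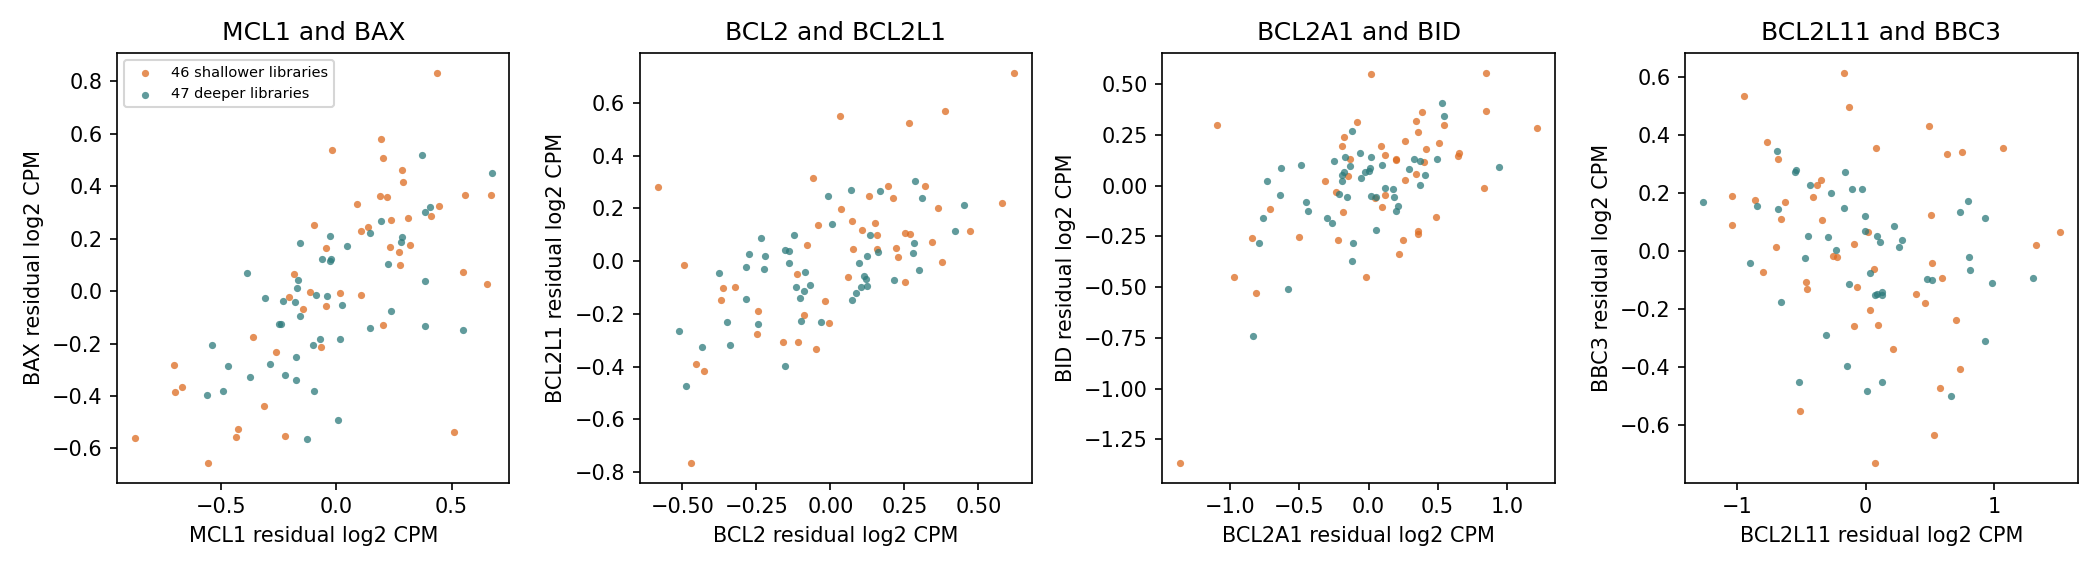
Residual log2 CPM of 4 pairs of genes, 1 point per line, with the 46 shallower and the 47 deeper libraries marked. MCL1 and BAX rise together (r = 0.655), and BCL2L11 and BBC3 do not (r = -0.229).

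BCL2L11, whose protein BIM binds all the survival proteins of the family, was related to few features in the table. With BCL2L11 as the predictor 0 of the 9 other genes passed (2 had an unadjusted p under 0.05), beside 0.618% of all features (0.23% higher), 86 in number. That share was 1.19% without the 1 line lowest at BID, 1.54% without the 10 smallest libraries and 5.27% without covariates, with 0 of the 9 genes in each. The first 5 components of the residuals of all features held 10.8% of the residual variance of BCL2L11, against a median of 33.5% over features. After 10 components, 64% of it was left. The most negative pair was BCL2L11 with BBC3, both BH3-only genes (r = -0.229, permutation p = 0.027, rho = -0.292, permutation p = 0.00503, n = 93, limma adjusted p = 0.298 and 0.0597), which did not pass over all features at the main settings. It passed with DESeq2 size factors (r = -0.244, limma adjusted p = 0.0457), with the deposited scores (r = -0.27, 0.0336) and with 5 components, and the smaller adjusted p ran from 0.0227 to 0.361 over the 13 alternatives. Without 2 lines r was -0.254, and it was -0.207 among shallower and -0.264 among deeper libraries. BCL2L11 with PMAIP1 had r = -0.07 (permutation p = 0.503, rho = -0.0275, permutation p = 0.796). The difference in pairing between BCL2L11 and the other genes was not tested.

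Near BCL2L11 in the table, the row directly before it, ENSG00000153093.18, ranked 2 of 13914 features by correlation with BCL2L11 (r = 0.512, rho = 0.515, permutation p = 1e-05 for each, n = 93, r = 0.501 without 2 lines, 0.486 among shallower and 0.545 among deeper libraries, limma adjusted p = 0.000489). It also varied more than the trend (log2 ratio 0.97, edgeR adjusted p = 3.94e-07), while the row after, ENSG00000153107.13, had r = -0.218 and a log2 ratio of -1.75. Both identifiers were chosen after their values were seen. In RefSeq, the nearest coding gene before BCL2L11 is ACOXL, 2365 bases away, but the files pair no name with the row, and reads of adjoining genes are not separated by strand. Adjacent features had a mean r of 0.276.

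**Figure D5:**
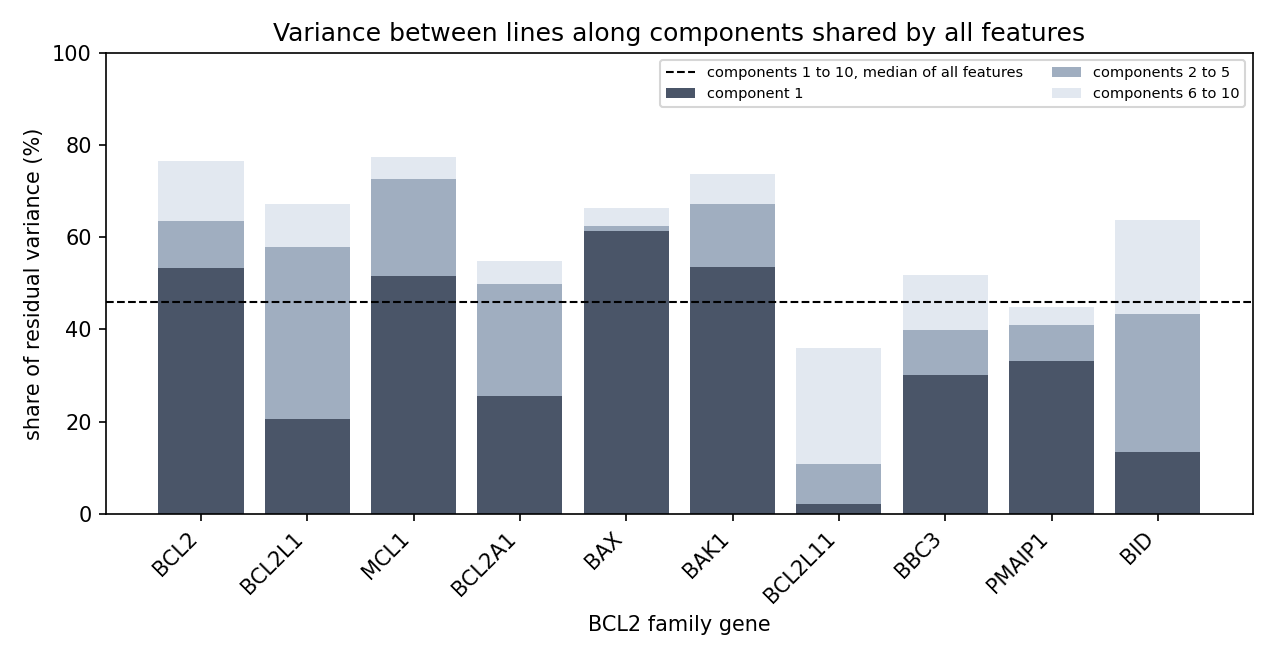
Share of each gene's residual variance held by principal components 1, 2 to 5 and 6 to 10 of the residuals of all features, as stacked bars. A dashed line marks the median of all features for components 1 to 10 (46.1%). The bar of MCL1 reaches 77.4% and that of BCL2L11 36%.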

How the data were processed

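H3K36me3 CUT&Tag libraries of 93 lymphoblastoid lines were used, 1 per line. The deposited counts are whole-number read counts of 14000 features. The tools HISAT2 2.2.1 and bedtools and build hg38 come from the submitters' processing notes, whereas read filters were not given in the sources used here. A deposited score per feature, a normal score, served in 1 alternative, and its making was likewise not stated.

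The 10 genes were found by Ensembl identifier. These genes, the lists and the tests were chosen with earlier results of these data known. Lists of other apoptosis genes and of cell type markers could not be matched to symbols, so they and the features most like each gene are not named. All 10 genes and all pairs that passed are named by rule; rows beside BCL2L11 and the line lowest at BID were chosen after their values were seen.

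Counts were scaled with TMM factors (0.916 to 1.05) in edgeR 4.0.16 (R 4.3.3) and given as CPM, with a prior count of 2 for log2 CPM. Tests ran on the 13915 features that had 10 or more counts in 47 or more libraries, which all 10 genes passed, with log2 library total and dynamic range (r = -0.51 with each other) as covariates, adjusted by Benjamini and Hochberg over all of them at 0.05. Variation used edgeR's goodness-of-fit test against the trended dispersion, and associations used limma 3.58.1. Pairs were also tested two-sided with 100000 permutations, and 45 pairs were computed. Depth classes were the 46 shallower and 47 deeper libraries. Scripts were tested on simulated data. Alternatives were size factors and dispersion outliers from DESeq2 1.42.0, other filters, prior counts and covariates, fewer libraries, a stretch of the table left out and the shared level of neighbouring rows taken off. Leaving out the line lowest at BID was added after the data were seen.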

Additional observations from a re-analysis of the deposited data

How the results depend on the processing

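Log2 ratios of own to trended dispersion stayed past the threshold for BCL2L11 under all 12 alternatives run (2.03 to 3.42). BCL2A1 passed in the 11 that used edgeR's test (0.95 to 1.53) and was no DESeq2 dispersion outlier. Genes varying above the trend numbered 5 of the 10, beside 18.6% of all features. They numbered 2 with 5 components (18.6% of all features), 2 with 10 components (18.1%) and 2 in the 47 deeper libraries (14.5%). By DESeq2 dispersion outliers it was 1, beside 242 of all features (1.74%) against 2586. Pairs that passed numbered 30, against 2 with 5 components, 1 with 10, 16 among the 46 shallower libraries and 10 among the 47 deeper ones. Over the 10 predictors, the share of all features that passed ran from 0.618% to 59.6% at the main settings. It was 0% to 5.88% with 5 components and 0% to 1.2% with 10. Among the 46 shallower libraries it was 0% to 45%, and among the 47 deeper ones 0.473% to 20.2%. Fewer libraries enter the fits of the shallower and the deeper ones, and for the rest the cause was not tested. The order of the genes per kb held in the 4 alternatives run. The genes related to depth numbered 4 to 6 and those related to dynamic range 8 to 9. At the main settings these terms were related to 64.9% and 79.9% of all features. BAX lost its call at 7 settings beside the components, and MCL1 and PMAIP1 in the deeper libraries, with components and by DESeq2 outliers. BCL2 passed without the rows after 1900 up to 3200 (0.54, adjusted p = 0.0133) and with neighbouring rows taken off (0.77, 0.000116), and BCL2L1 with those rows taken off (0.54, 0.0145).

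Genes whose log2 ratio changed sign were as follows. Without covariates, BCL2 had -0.0355, BCL2L1 -0.38, BBC3 -0.31 and BID -0.29. With 5 components, BCL2 had -0.14, MCL1 -0.42, BAX -0.38 and BID -0.0373. With 10 components, BCL2 had -0.11, BCL2L1 -0.27, MCL1 -0.36, BAX -0.14 and BID -0.20. In the deeper libraries, BCL2L1 had -0.38, BBC3 -0.31 and BID -0.36. BBC3 had -0.0724 without the 10 smallest libraries, -0.22 with neighbouring rows taken off and -0.0123 by DESeq2's dispersions. Without the line lowest at BID, BCL2L1 had -0.0491 and BID -0.18. The slopes with depth turned to -0.0332 at BCL2 and -0.029 at BCL2L11 without the 10 smallest libraries.

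Among the pairs that had passed, correlations that changed sign with 5 components were BCL2 with MCL1 (-0.172), BAX (-0.174), BAK1 (-0.00668) and BBC3 (-0.0926), BCL2L1 with BAX (-0.0661), MCL1 with BCL2A1 (-0.104), BCL2A1 with BBC3 (-0.0213), BAX with BAK1 (-0.0191) and BID (-0.00536), and BAK1 with BBC3 (-0.114) and PMAIP1 (-0.00687). Among the same pairs, with 10 components they were BCL2 with MCL1 (-0.132) and BAX (-0.142), BCL2L1 with BAX (-0.0568), MCL1 with BCL2A1 (-0.0458), BCL2A1 with BBC3 (-0.083), BAX with BAK1 (-0.0471) and PMAIP1 (-0.0118), and BAK1 with BCL2L11 (-0.0668), BBC3 (-0.15) and PMAIP1 (-0.0468). BCL2L11 with PMAIP1 turned to 0.0646 without covariates and 0.138 in the deeper libraries. No paired analysis was possible because the libraries form 1 group with 1 library per line. Summed exon length in place of the gene span was not run, since the reference table gives 1 length.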

Other observations

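The line lowest at BID differed at several of the genes at once. BID had 17.3 CPM there, 5.03 SD below the mean of the residuals, and BCL2A1 had 4.65 CPM, the lowest of the 93 lines. BCL2L11 had 36.6 CPM, the second lowest. In contrast, BCL2 had 339 CPM, the highest, and BCL2L1 220 CPM, the third highest. Its total was 5484583 counts. In this library 2.88% of features lay more than 3 SD from the mean, against a median of 0.273% over libraries. Without it, 35 of the 45 pairs passed in place of 30. The share of all features that passed then ran from 1.19% (BCL2L11 as predictor) to 59.9% (BAX). With all lines it ran from 0.618% to 59.6%. With BID as predictor that share rose from 29.6% to 42.3%, and with BCL2L1 it fell from 32.6% to 30%. It was also lower with MCL1 and BBC3. Without this line, the correlation of BCL2A1 with BID was 0.487 (limma adjusted p = 1.27e-05) in place of 0.556. The part of culture, line and library in these values was not tested.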
